A study of Mus musculus with 12 samples.

Results

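The collagen genes of mouse ear skin were taken as all protein-coding genes whose symbol has the form Col, number, a, number. The rule matched 44 genes, and 42 of them had an expected count of 10 or more in 3 or more of the 12 libraries, out of 55416 gene identifiers in the tables and 17271 identifiers that met the same count rule. Just inside the rule, Col26a1 reached 10 counts in 3 libraries, with at most 15 counts in any of them. Just outside it, Col6a4 had at most 7 counts and Col19a1 at most 4 in a library, and both are left out of the values that follow. By class, the 42 genes were 11 fibrillar collagens, 8 FACITs (fibril-associated collagens with interrupted triple helices), 6 genes of the type IV network of basement membranes, 5 of the beaded filaments of collagen VI, the anchoring fibril gene Col7a1, 4 transmembrane collagens, 3 genes of hexagonal networks, 2 multiplexins, and Col26a1 and Col28a1, which were put in no class.

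Ears of C57BL/6 mice, 8 to 12 weeks old, were collected on day 6 and their bulk mRNA sequenced, with 3 libraries in each of 4 groups. UTX_Veh received the DMSO vehicle and has no imiquimod in its treatment label, and the labels do not spell out UTX. IMQ_Veh received imiquimod, a Toll-like receptor agonist that provokes psoriasis-like inflammation, as 20.8 mg of a 5% cream on the dorsal ear each day, with the same vehicle. IMQ_GW3965 and IMQ_Troglitazone received the same cream and, by intraperitoneal injection once a day from day 3, either 20 mg/kg of GW3965, which activates liver X receptors, or 150 mg/kg of troglitazone, an agonist of PPARγ. No group is labelled as cream without imiquimod, so imiquimod and the cream base cannot be told apart. Whether the replicates of a group are different mice is not stated. Every p-value of the main fit reflects only how far libraries scatter within their groups, pooled over all 4 groups. Part of that scatter may be technical. An ear is thin skin over cartilage with some muscle and fat, and in bulk RNA fewer cells of a type and less RNA per cell cannot be told apart.

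Collagens are extracellular proteins built from chains wound into a triple helix. Fibroblasts make most of the fibrils of the dermis from collagens I, III and V, and chondrocytes build cartilage fibrils from collagens II, IX and XI. At the junction of epidermis and dermis, keratinocytes are held by the transmembrane collagen XVII of hemidesmosomes, the collagen IV sheet of the basement membrane, and anchoring fibrils of collagen VII beneath it.

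Total expected counts were 18242074 to 25641602 per library, and all tested markers of fibroblasts, chondrocytes, skeletal muscle, adipocytes and keratinocytes were above 0 in every library. IMQ_Veh replicate 3 stood apart in the collagens: it had the highest value of its group for 37 of the 42 genes, against 38.4% of all 17130 genes tested. Its CPM (library-scaled read counts, with TMM factors) were 2.39 times the mean of the other IMQ_Veh libraries at the median collagen and 0.989 times at the median gene. The ratio was smallest in 3 of the 4 transmembrane collagens, at 1.005 for Col25a1, 1.04 for Col17a1 and 1.10 for Col23a1, while the other, Col13a1, was at 1.70. It reached 3.80 for Col1a1, 4.37 for Col2a1, 4.79 for Col10a1 and 4.99 for Col6a5. The same library had the most marker RNA of muscle, cartilage and fibroblasts in its group. The summed CPM of 12 skeletal muscle markers were 1697, 1756 and 6544 in IMQ_Veh replicates 1 to 3, those of 11 chondrocyte markers 212, 298 and 632, and those of 10 fibroblast markers 1110.3, 853 and 1981. The part of these markers in the collagen values was not tested, and collagen results are given with and without that library. It was singled out by these same collagen values, so calls made without it are not independent evidence. Those fits keep only replicates 1 and 2 of IMQ_Veh. In IMQ_GW3965 replicate 3, 11.6% of all counts lay in the single feature ENSMUSG00000119584, against 0.138% at most elsewhere.

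**Figure D1:**
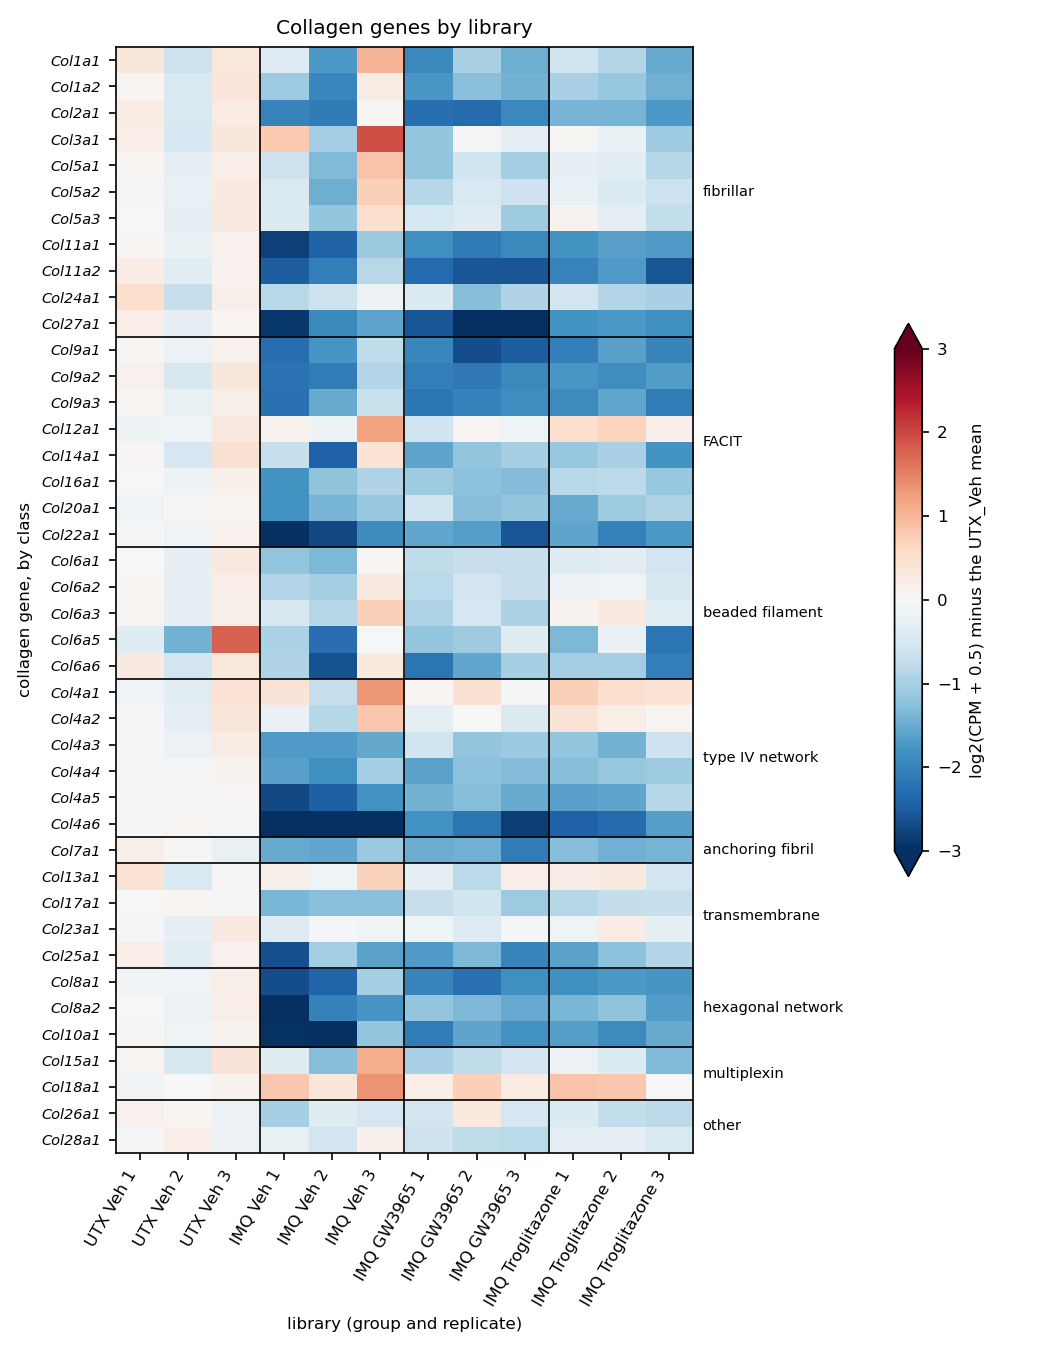
Heat map of the 42 collagen genes (rows, by class) in the 12 libraries (columns, by group). Colour is log2(CPM + 0.5) minus the UTX_Veh mean of the gene, and values past 3 take the end colour. IMQ_Veh replicate 3 is redder than replicates 1 and 2 in most rows, and the rows of Col4a6, Col22a1 and Col8a2 are blue in all 9 imiquimod libraries.

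Levels between genes were compared per length, as TPM within a library. In UTX_Veh, Col17a1 had the highest level of all collagens in each library, at 743, 706 and 692 TPM. Below it stood Col3a1 with 601, 357 and 666 TPM and Col1a2 with 556, 369 and 675 TPM, whose ranges overlapped each other. Col1a1 had 393, 194 and 389.9 TPM, Col8a1 222, 209 and 264 TPM and Col6a1 228, 186 and 276 TPM, and these values also overlapped. At the low end, Col4a3, Col4a4, Col6a5 and Col26a1 lay between 0.08 and 2.13 TPM in that group. Fibrillar collagens made up 47.6%, 39.5% and 48.7% of the summed collagen TPM in UTX_Veh and 62.3%, 40.8% and 68.6% in IMQ_Veh, groups that overlapped. The hexagonal network genes held 7.54%, 9.27% and 8.23% in UTX_Veh and 1.88%, 3.94% and 2.72% in IMQ_Veh. The multiplexins went from 0.999%, 1.18% and 1.06% to 2.38%, 2.52% and 1.85% of collagen TPM. The type IV genes, mostly Col4a1 and Col4a2 by level, held 2.83%, 3.07% and 3.38% in UTX_Veh and 4.27%, 3.80% and 3.91% in IMQ_Veh. These last 3 classes did not overlap between the groups, the hexagonal network being the smaller share and the multiplexins and type IV genes the larger ones in every IMQ_Veh library. The shares are of a summed collagen TPM of 4006, 3002 and 4304 in UTX_Veh and 1576, 1006 and 3694 in IMQ_Veh. A larger share therefore does not by itself show more transcript of a class.

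**Figure D2:**
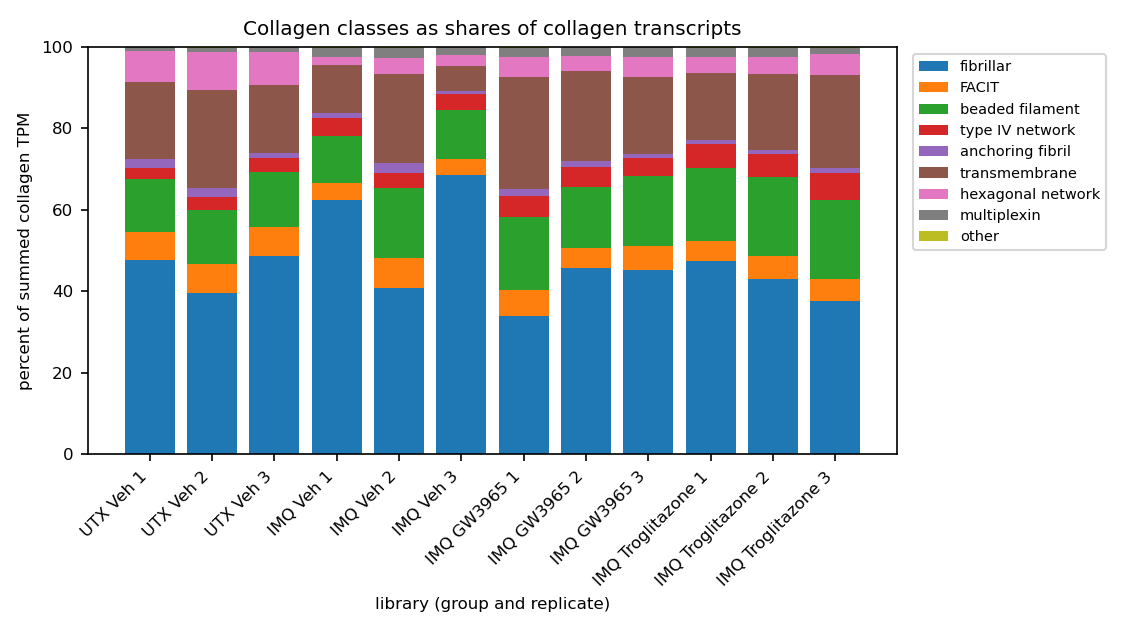
Stacked bars of the share of each collagen class in the summed TPM of the 42 genes, in percent, for each library. The pink segment (hexagonal network) is 7.54% to 9.27% in UTX_Veh and 1.88% to 3.94% in IMQ_Veh, and the blue segment (fibrillar) differs most among the IMQ_Veh libraries.

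Imiquimod-challenged skin was first set against UTX_Veh, which asks how the collagens stand in the inflamed ear. Of the 42 genes, 20 were lower in IMQ_Veh and 1, Col18a1, was higher at an edgeR adjusted p under 0.05, while 21 did not pass. Over all genes tested, 28.9% were called lower and 33.0% higher. The median log2 fold change was -1.15 for the collagens and 0.01 for all genes, and 35 of the 42 values were negative. The libraries of the groups did not overlap for 20 collagens lower and 1 higher in IMQ_Veh, against 32.1% and 34.7% of all genes. By class, the lower genes were 6 of 8 FACITs, 4 of 6 type IV genes, 3 of 3 hexagonal network genes, 3 of 11 fibrillar genes, 2 of 4 transmembrane genes, Col7a1, and 1 of 5 beaded filament genes. Without IMQ_Veh replicate 3 the count of lower collagens rose to 30 and Col18a1 was again the only higher one, where 31.1% and 33.3% of all genes were called lower and higher. The added genes included 5 fibrillar and 3 beaded filament collagens, so the count for these classes rests on that library.

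**Figure D3:**
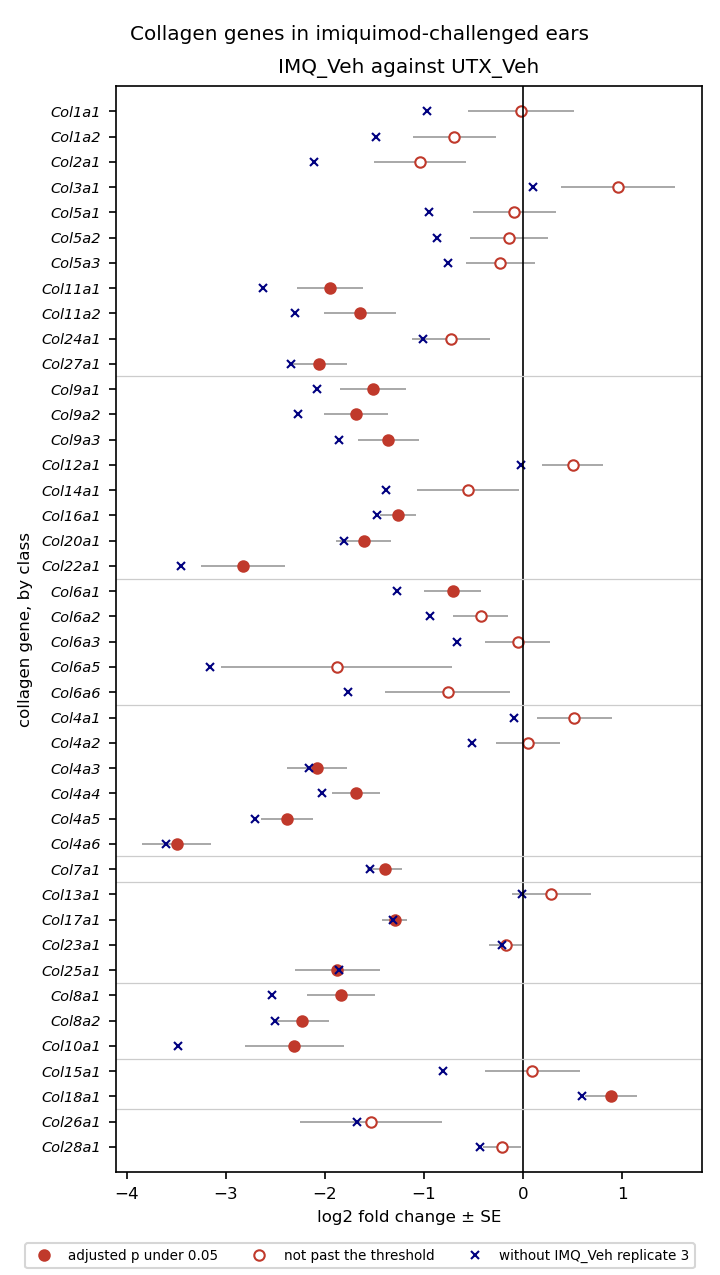
Log2 fold change of each collagen in IMQ_Veh against UTX_Veh, with SE bars from the edgeR fit; filled circles are past the threshold and crosses are the fit without IMQ_Veh replicate 3. Col4a6, Col22a1 and Col4a5 lie farthest to the left, Col18a1 is the only filled circle above 0, and the crosses of Col1a1, Col2a1 and Col10a1 are far left of their circles.

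The largest fall of a single collagen was that of Col4a6. Col4a6 (ENSMUSG00000031273, X:141165403-141474076 on GRCm38, minus strand) and Col4a5 (ENSMUSG00000031274, X:141475385-141689234, plus strand) encode chains of a collagen IV network found in the basement membrane of epidermis. Col4a6 read 36.2, 39.3 and 35.1 CPM in UTX_Veh and 1.66, 4.22 and 3.83 CPM in IMQ_Veh. All UTX_Veh values were higher, and Col4a6 fell by 3.50 on the log2 scale (SE 0.35, edgeR adjusted p = 9.87e-06). Col4a5 went from 26.4, 24.7 and 26.6 CPM to 3.53, 4.34 and 7.03 CPM, again without overlap, with a log2 fold change of -2.38 ± 0.26 (SE, edgeR adjusted p = 1.77e-05). Col4a3 and Col4a4, which encode chains of another type IV network, best known from kidney, were also lower, at -2.09 ± 0.30 (SE, adjusted p = 0.000128) and -1.69 ± 0.24 (SE, edgeR adjusted p = 0.000124). Col4a3 read 3.81, 3.47 and 4.70 CPM in UTX_Veh and 0.882, 0.885 and 1.05 CPM in IMQ_Veh, low throughout and without overlap.

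The remaining type IV genes were not called. Col4a1 and Col4a2, the chains of the network present in nearly all basement membranes, lie head to head on chromosome 8 with their starts 21 bases apart. Col4a1 read 128, 113 and 190.2 CPM in UTX_Veh and 183, 86.2 and 349 CPM in IMQ_Veh, and Col4a2 131, 111 and 174 and 119, 74.9 and 239 CPM. The IMQ_Veh values of both genes lay on both sides of the UTX_Veh values, high in replicate 3 and low in replicate 2. Their log2 fold changes were 0.52 ± 0.38 (SE, adjusted p = 0.248) and 0.05 ± 0.33 (SE, edgeR adjusted p = 0.897), and both values became negative without IMQ_Veh replicate 3, at -0.09 and -0.52. Because these genes overlap on opposite strands and the strand setting of the counting is not given, reads could not be told apart in the shared stretch.

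Col17a1 (ENSMUSG00000025064, 19:47646344-47692094, minus strand), the hemidesmosome collagen, had the smallest standard error of the 42 genes. Its values were 1899.7, 1968 and 1845 CPM in UTX_Veh and 732, 797 and 797 CPM in IMQ_Veh. The groups were far apart and each was tight, with a log2 fold change of -1.30 ± 0.12 (SE, adjusted p = 7.56e-06). Col7a1 (ENSMUSG00000025650, 9:108953586-108984875, plus strand), the sole gene of anchoring fibrils, read 193, 175 and 146 CPM against 59.8, 57.5 and 78.2 CPM. It was lower in all 3 IMQ_Veh libraries, by -1.40 ± 0.18 (SE, edgeR adjusted p = 4.64e-05) as a log2 fold change. The falls of Col17a1 and Col7a1 were of like size without IMQ_Veh replicate 3, at -1.31 and -1.54. Summed CPM of 8 basal keratinocyte markers went the other way, from 10829 to 11947 in UTX_Veh to 22981 to 30895 in IMQ_Veh, with 4 markers called higher, 2 lower and none at 0 in a library, and their part in the values was not tested.

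Among the genes of this group, Col17a1, Col4a5 and Col4a6 were those later called in an agonist group, and their promoters are shown for that reason. The sequences are the exon-free part of the 250 bases before the start of transcription, 5′ to 3′ along the gene, from RefSeq on GRCm38.p6, in which 33 of the collagen genes were matched. Capitals mark TATAAA in Col17a1, CCAAT in Col4a5 and CCGCCC, the reverse complement of the GC box GGGCGG, in Col4a6.
Col17a1 (chr19:47692095-47692292, minus strand): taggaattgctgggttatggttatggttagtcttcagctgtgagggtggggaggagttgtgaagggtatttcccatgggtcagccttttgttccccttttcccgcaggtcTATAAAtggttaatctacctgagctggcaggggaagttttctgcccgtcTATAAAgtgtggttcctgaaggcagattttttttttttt
Col4a5 (chrX:141475169-141475384, plus strand): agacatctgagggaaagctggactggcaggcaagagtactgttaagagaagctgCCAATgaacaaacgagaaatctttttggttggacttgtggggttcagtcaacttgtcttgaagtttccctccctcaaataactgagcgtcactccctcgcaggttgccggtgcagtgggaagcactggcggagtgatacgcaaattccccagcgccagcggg
Col4a6 (chrX:141474077-141474326, minus strand): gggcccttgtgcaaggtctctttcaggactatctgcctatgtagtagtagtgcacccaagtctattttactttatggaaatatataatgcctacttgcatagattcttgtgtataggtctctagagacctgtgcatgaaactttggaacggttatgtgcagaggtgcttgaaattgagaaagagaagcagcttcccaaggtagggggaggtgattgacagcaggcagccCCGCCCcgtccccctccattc
Col4a5 and Col4a6 run away from each other, with RefSeq starts 1343 bases apart. The RefSeq start of Col4a5 differs from the GENCODE position given above. Searched on both strands, TATAAA stood in 12.4% of all 32851 promoters of that length and for 5 of the 33 collagen genes. CCAAT stood in 33.8% and for 12 genes, and GGGCGG in 32.7% and for 20. A gene was counted if any of its promoters held the motif, and some collagens had several. The percent per promoter and the gene counts are therefore in unlike units. The half-site AGGTCA, which nuclear receptors bind, was found in 14.0% of all promoters and for 8 collagen genes, and in none of the 3 promoters shown. Its direct repeats known as DR1 and DR4, read without mismatch, were in 0.0335% and 0.0152% of all promoters and in 0 of the 33.

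The fibrillar collagens of dermis showed no called change, and their IMQ_Veh libraries were widely spread. Col1a1 (ENSMUSG00000001506, 11:94936224-94953042), a chain of collagen I, read 1238, 635 and 1217 CPM in UTX_Veh and 755, 296 and 1997 CPM in IMQ_Veh. Its partner Col1a2 read 1539, 1060.3 and 1860.3 and 685, 373 and 1695 CPM. Col3a1 (ENSMUSG00000026043, 1:45311538-45349706), the chain of collagen III that mixes with collagen I in stretchable tissue, read 1173, 709.9 and 1291 and 1770.0, 494 and 3924 CPM. Within IMQ_Veh, replicate 3 was highest and replicate 2 lowest for each of these genes, and the groups overlapped. Log2 fold changes were -0.02 ± 0.54 (SE, adjusted p = 0.977) for Col1a1, -0.70 ± 0.42 (SE, edgeR adjusted p = 0.167) for Col1a2 and 0.96 ± 0.58 (SE, adjusted p = 0.163) for Col3a1.

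Col5a1, whose collagen V sets the diameter of fibrils, read 164, 133 and 182 CPM and 102, 62.9 and 287 CPM, and Col5a2 and Col5a3 likewise overlapped between the groups. Without IMQ_Veh replicate 3, Col1a2 was called lower at -1.49 ± 0.29 (SE, edgeR adjusted p = 0.000774) and Col5a1 at -0.95 ± 0.25 (SE, adjusted p = 0.00571). Col1a1 stayed outside the threshold at -0.97 ± 0.43 (SE, edgeR adjusted p = 0.0667). Col3a1 was at 0.10 there, the only fibrillar collagen above 0. Without IMQ_Veh replicate 2 instead, Col3a1 was called higher at 1.38 (edgeR adjusted p = 0.0159). Col1a1, Col1a2 and Col5a1 were then at 0.37, -0.37 and 0.24, and none of them passed. Of 10 fibroblast markers, 2 were called higher and 4 lower in IMQ_Veh, with summed CPM of 853 to 1981 against 1931 to 2631 in UTX_Veh and none at 0 in a library. The part of these markers in the fibrillar values was not tested.

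A ratio of chains within a library does not depend on scaling. Col3a1 stood to Col1a1, in TPM, as 1.53, 1.84 and 1.71 in UTX_Veh and as 3.83, 2.74 and 3.27 in IMQ_Veh. Every IMQ_Veh library, replicate 3 included, had the higher ratio. In IMQ_GW3965 the ratio was 2.90, 3.36 and 3.72, and in IMQ_Troglitazone 2.49, 2.53 and 2.502. All 9 imiquimod libraries thus lay above the 3 of UTX_Veh; this pair was chosen after its values were seen. Col6a1 to Col6a2 read 1.23, 1.29 and 1.34 in UTX_Veh and 1.02, 1.01 and 1.07 in IMQ_Veh, a lower ratio in each IMQ_Veh library. It was 1.34, 1.16 and 1.28 in IMQ_GW3965, overlapping UTX_Veh, and 1.13, 1.11 and 1.21 in IMQ_Troglitazone, below UTX_Veh. The ratios of Col1a1 to Col1a2, Col4a1 to Col4a2 and Col5a1 to Col5a2 overlapped between UTX_Veh and IMQ_Veh.

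Of the collagens known from cartilage, Col2a1 did not pass and the following were called lower. Col11a1, Col11a2 and Col27a1, fibrillar collagens made by chondrocytes, had log2 fold changes of -1.95 ± 0.33 (SE, adjusted p = 0.000373), -1.65 ± 0.36 (SE, edgeR adjusted p = 0.00207) and -2.06 ± 0.27 (SE, adjusted p = 7e-05). Col27a1 read 300.0, 221 and 271 CPM in UTX_Veh and 34.8, 68.3 and 87.2 CPM in IMQ_Veh, far below in each library. The collagen IX genes Col9a1, Col9a2 and Col9a3, FACITs that decorate collagen II fibrils, were at -1.52, -1.68 and -1.36 (edgeR adjusted p of 0.00203, 0.000853 and 0.00236). Of these, Col9a3 overlaps Tcfl5 on the opposite strand, so its reads are uncertain to that extent.

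Col2a1, the main fibril chain of cartilage, read 97.9, 60.1 and 98.4 CPM in UTX_Veh and 20.5, 18.8 and 85.8 CPM in IMQ_Veh. Replicate 3 fell among the UTX_Veh values and the other IMQ_Veh libraries well under them. The log2 fold change was -1.04 ± 0.47 (SE, edgeR adjusted p = 0.0709) and did not pass. Without replicate 3, which was set aside for such values, it was -2.12 ± 0.22 (SE, edgeR adjusted p = 7.84e-06). Without IMQ_Veh replicate 1 it was -0.75 (edgeR adjusted p = 0.19), and without replicate 2 it was -0.73 (edgeR adjusted p = 0.173). Col10a1 (ENSMUSG00000039462, 10:34389981-34397085), a hexagonal network collagen of hypertrophic chondrocytes, read 57.9, 51.5 and 60.8 CPM against 6.80, 3.42 and 24.4 CPM. All IMQ_Veh values were lower, replicate 3 least so, and the log2 fold change was -2.31 ± 0.50 (SE, edgeR adjusted p = 0.00194), or -3.49 without it. Col10a1 overlaps Nt5dc1 on the opposite strand, so its reads are uncertain to that extent. All 11 chondrocyte markers tested were called lower in IMQ_Veh, with summed CPM of 212 to 632 against 1291 to 1860.1 in UTX_Veh and none at 0 in a library. The part of cartilage content in these collagen values was not tested.

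The hexagonal network genes of collagen VIII, Col8a1 and Col8a2, are best known from vessels and cornea. Col8a2 (ENSMUSG00000056174, 4:126286793-126314330) read 104, 93.4 and 120.3 CPM in UTX_Veh and 11.6, 25.4 and 30.6 CPM in IMQ_Veh, without overlap, with a log2 fold change of -2.23 ± 0.28 (SE, adjusted p = 4.02e-05). Col8a1 went from 611, 598 and 724 to 100.3, 120.4 and 319.6 CPM, with a log2 fold change of -1.84 ± 0.34 (SE, edgeR adjusted p = 0.000679). Among the other FACITs, Col22a1 (ENSMUSG00000079022, 15:71795795-72034227), a collagen of tissue junctions such as that of muscle and tendon, fell furthest. It read 15.1, 14.5 and 17.2 CPM in UTX_Veh and 0.778, 1.97 and 3.83 CPM in IMQ_Veh. Every IMQ_Veh value was lower, at -2.83 ± 0.42 (SE, adjusted p = 0.000154) as a log2 fold change. All 12 skeletal muscle markers were also called lower, with summed CPM of 1697 to 6544 against 13117 to 15039 and none at 0 in a library, and their part in the Col22a1 value was not tested.

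Col16a1 and Col20a1 were lower as well, at -1.26 and -1.61 (edgeR adjusted p of 0.000139 and 0.000389). Col12a1 and Col14a1, FACITs of dermis and tendon, were not called, at 0.50 ± 0.31 (SE, edgeR adjusted p = 0.172) and -0.56 ± 0.51 (SE, adjusted p = 0.361). In the beaded filaments, which collagen VI forms around cells, Col6a1 read 499.5, 421 and 600.0 CPM in UTX_Veh and 221, 198 and 510.4 CPM in IMQ_Veh. Replicate 3 overlapped UTX_Veh, and the call was marginal, at -0.71 ± 0.29 (SE, edgeR adjusted p = 0.0481). It was lost in a fit of the 2 groups alone and without UTX_Veh replicate 1 or 3 or IMQ_Veh replicate 1 or 2. Col6a2, Col6a3, Col6a5 and Col6a6 had log2 fold changes from -1.88 to -0.05 and did not pass. Without IMQ_Veh replicate 3, Col6a1 was at -1.27 ± 0.14 (SE, adjusted p = 1.39e-05), and Col6a2, Col6a3 and Col6a6 were called lower too.

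Among transmembrane collagens other than Col17a1, Col25a1, known from neurons and from the innervation of muscle, was lower at -1.88 ± 0.43 (SE, edgeR adjusted p = 0.00266). Of 7 Schwann cell markers 6 were called lower, with summed CPM of 155 to 206 against 372 to 459 in UTX_Veh and none at 0 in a library, as were the 12 muscle markers given above. The part of either list in the Col25a1 value was not tested. Col13a1, of muscle and nerve endings, and Col23a1, which keratinocytes also express, were not called, at 0.29 and -0.18. Col18a1 (ENSMUSG00000001435, 10:77052178-77166548, minus strand), the multiplexin of basement membranes whose end is the endostatin fragment, was the only collagen called higher. It read 56.5, 61.6 and 65.8 CPM in UTX_Veh and 108, 77.2 and 156 CPM in IMQ_Veh. The lowest IMQ_Veh value was above the highest of UTX_Veh, and the log2 fold change was 0.89 ± 0.27 (SE, adjusted p = 0.0119). Without IMQ_Veh replicate 3 it was 0.60 ± 0.24 (SE, edgeR adjusted p = 0.0468), and Col18a1 overlaps Slc19a1 on the opposite strand. The other multiplexin, Col15a1, of muscle and vessel basement membranes, was at 0.09 ± 0.48 (SE, adjusted p = 0.876). Col26a1 and Col28a1 did not pass, at -1.53 and -0.21.

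**Figure D4:**
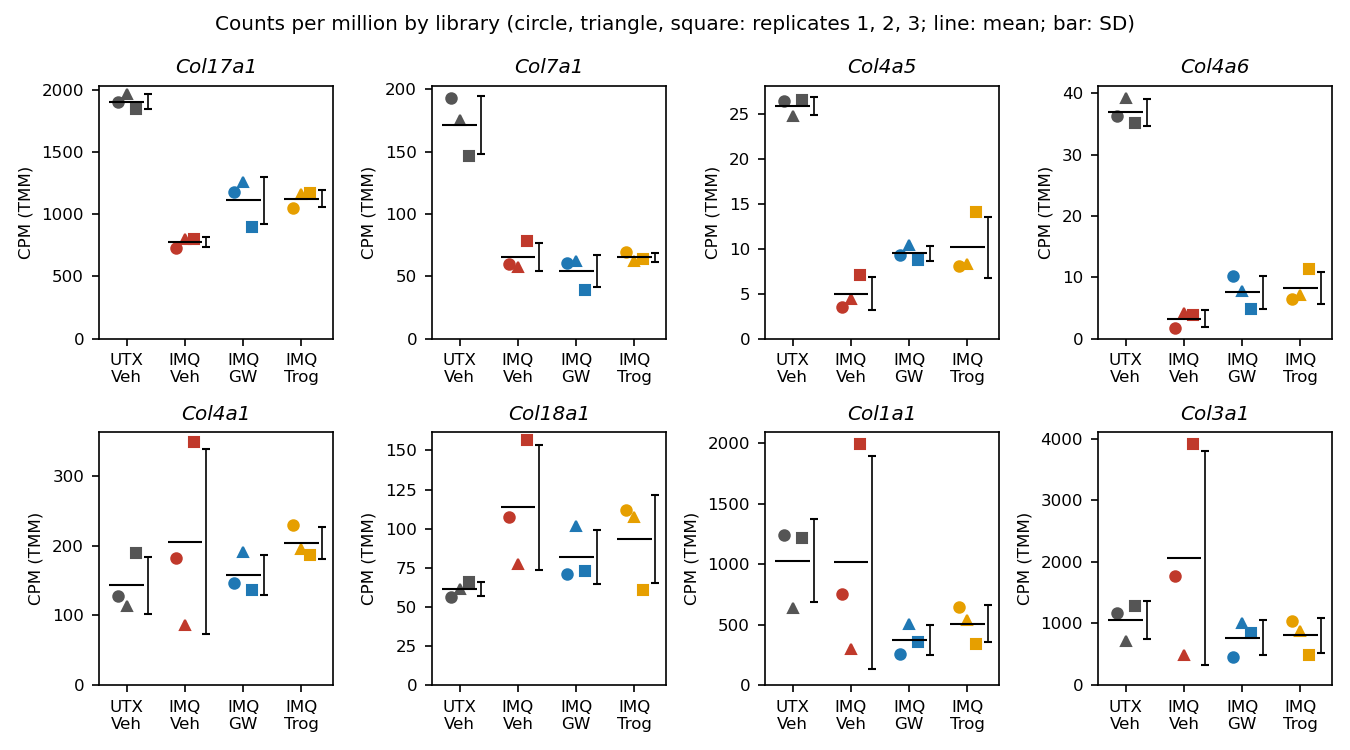
CPM of 8 collagens in each library, on linear axes from 0, with replicates 1, 2 and 3 as circle, triangle and square, the group mean as a line and the SD as a bar. For Col17a1, Col7a1, Col4a5 and Col4a6 all IMQ_Veh values lie below those of UTX_Veh. In Col7a1, Col4a5, Col1a1, Col3a1, Col4a1 and Col18a1 the square stands highest within IMQ_Veh.

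Genes that make, organise and remove collagen were described beside the 28.9% lower and 33.0% higher of all genes. Of 20 genes of procollagen modification in the endoplasmic reticulum, 4 were higher and 4 lower in IMQ_Veh (median log2 -0.18). P4hb, the beta subunit of prolyl 4-hydroxylase and a general protein disulfide isomerase, was at 1.40 ± 0.12 (adjusted p = 3.15e-06), and Ppib, a prolyl isomerase that helps the helix fold, at 0.75 ± 0.09 (adjusted p = 4.37e-05). Mia2, which takes part in the export of large cargo, was at 0.52 ± 0.08 (adjusted p = 0.000174), and P3h2, a prolyl 3-hydroxylase that acts on collagen IV, at -0.60 ± 0.09 (adjusted p = 0.000224). Of 12 genes of procollagen processing and crosslinking, 7 were lower and 0 higher (median -0.81). They included Adamts14 and Adamts3, proteases that trim the amino end of procollagen, at -2.27 ± 0.25 (adjusted p = 1.7e-05) and -2.26 ± 0.41 (adjusted p = 0.000555), the crosslinking lysyl oxidase Loxl4 at -1.89 ± 0.28 (adjusted p = 0.000156), and Pcolce2, an enhancer of procollagen trimming, at -1.54 ± 0.24 (adjusted p = 0.000183).

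Of 16 fibril organisers, 11 were lower and 0 higher (median -0.99). The small proteoglycans Fmod, Prelp and Dcn, which bind fibrils, were at -2.22 ± 0.34 (adjusted p = 0.000181), -1.85 ± 0.29 (adjusted p = 0.000232) and -1.001 ± 0.23 (adjusted p = 0.00249), and Comp, a cartilage and tendon matrix protein, at -1.96 ± 0.38 (adjusted p = 0.000971). Of these, Dcn is also in the fibroblast list and Comp in the chondrocyte list. Of 15 genes of collagen breakdown and its inhibitors, 4 were higher and 6 lower (median -0.29). Mmp8, the collagenase of neutrophils and a member of the neutrophil list, was at 4.46 ± 0.52 (adjusted p = 2.73e-05), from 0.0837 ± 0.044 CPM to 1.95 ± 0.65 CPM (SD, n = 3). Summed CPM of the 7 neutrophil markers were 7.82 to 22.9 in UTX_Veh and 5734 to 10084 in IMQ_Veh, and their part was not tested. Timp1, an inhibitor of matrix proteases, was at 3.22 ± 0.44 (adjusted p = 8.78e-05), whereas its relatives Timp3 and Timp2 were lower at -2.14 ± 0.33 (adjusted p = 0.000182) and -1.31 ± 0.21 (adjusted p = 0.000242).

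Of 8 collagen receptors tested, 4 were lower and 1 higher. The lower ones were Itga10, Itga2 and Itga11, integrin chains that bind collagen, at -1.80 ± 0.34 (adjusted p = 0.000825), -0.78 ± 0.18 (adjusted p = 0.00319) and -1.24 ± 0.38 (adjusted p = 0.0138), and the receptor kinase Ddr1 at -0.44 ± 0.09 (adjusted p = 0.00131). Of 19 partners of the basement membrane, 9 were lower and 2 higher (median -0.72). Dst, which links hemidesmosomes to keratin and is also in the basal keratinocyte list, was at -1.71 ± 0.19 (adjusted p = 1.91e-05). The laminin chains Lama5, Lamb3 and Lamb2 were at -1.28 ± 0.16 (adjusted p = 3.97e-05), -0.83 ± 0.11 (adjusted p = 7.94e-05) and -1.20 ± 0.19 (adjusted p = 0.000222). These lists were drawn up with earlier results of the same libraries known, so their counts describe the libraries and are not independent evidence of a direction.

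GW3965 in imiquimod-challenged skin was compared with IMQ_Veh to ask how the collagens stand with the liver X receptor agonist. Only Col17a1 passed, higher in IMQ_GW3965, and 0 collagens were lower at an edgeR adjusted p under 0.05, where 3.71% of all genes were called higher and 2.88% lower. At an unadjusted p under 0.05 there were 15 collagens, and DESeq2 called 4 higher and 2 lower. The median log2 fold change of the 42 genes was -0.39, with 31 negative. Troglitazone, compared in the same way with the same IMQ_Veh libraries, gave 3 collagens higher, Col17a1, Col4a5 and Col4a6, and 0 lower, against 4.69% and 4.65% of all genes. Here 7 collagens had an unadjusted p under 0.05, DESeq2 called 4 higher and 0 lower, and the median was -0.03. Since both comparisons share the IMQ_Veh libraries, their values are given side by side and no likeness between them is drawn.

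Col17a1 read 1180.4, 1258 and 897 CPM in IMQ_GW3965 and 1048, 1158 and 1169.5 CPM in IMQ_Troglitazone. All 6 values were above the 732, 797 and 797 CPM of IMQ_Veh and below the lowest of UTX_Veh. The log2 fold change against IMQ_Veh was 0.52 ± 0.12 (SE, edgeR adjusted p = 0.031) with GW3965 and 0.54 ± 0.12 (SE, adjusted p = 0.0241) with troglitazone. It was nearly the same without IMQ_Veh replicate 3, at 0.54 and 0.56, and was called there in both. The GW3965 call was lost in a fit of the 2 groups alone, with the lane field as a covariate, and without IMQ_Veh replicate 1 or 2 or IMQ_GW3965 replicate 1 or 2. The troglitazone call was lost in a fit of the 2 groups alone and without IMQ_Veh replicate 1 or IMQ_Troglitazone replicate 2 or 3. Summed CPM of the basal keratinocyte markers were 19414 to 23174 with GW3965 and 15814 to 20733 with troglitazone, against 22981 to 30895 in IMQ_Veh, and their part in the collagen values was not tested.

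Col4a5 read 9.31, 10.4 and 8.72 CPM with GW3965 and 8.04, 8.34 and 14.1 CPM with troglitazone. Col4a6 read 10.1, 7.69 and 4.80 and 6.43, 7.03 and 11.3 CPM in these groups. For both genes every agonist library stood above every IMQ_Veh library and under every UTX_Veh library. The log2 fold changes with troglitazone were 1.04 ± 0.26 (SE, edgeR adjusted p = 0.0329) for Col4a5 and 1.34 ± 0.34 (SE, adjusted p = 0.035) for Col4a6. With GW3965 they were 0.94 ± 0.26 (SE, edgeR adjusted p = 0.0519) and 1.22 ± 0.34 (SE, adjusted p = 0.0543), just outside the threshold. Without IMQ_Veh replicate 3 both genes were called with either agonist, at 1.26 ± 0.24 (SE, edgeR adjusted p = 0.00431) and 1.34 ± 0.39 (SE, adjusted p = 0.0308) for GW3965 and 1.36 ± 0.23 (SE, edgeR adjusted p = 0.00274) and 1.46 ± 0.38 (SE, adjusted p = 0.0187) for troglitazone. Both troglitazone calls were lost in a fit of the 2 groups alone, with the lane field as a covariate, and without IMQ_Veh replicate 1 or IMQ_Troglitazone replicate 3, and that of Col4a5 also without IMQ_Veh replicate 2.

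Libraries did not overlap for 5 collagens higher with GW3965, Col17a1, Col4a3, Col4a5, Col4a6 and Col8a2, against 12.7% of all genes. With troglitazone there were 5, Col4a6, Col4a5, Col4a3, Col8a2 and Col17a1, against 11.8% of all genes, and the IMQ_Veh libraries are shared. Col28a1 alone was lower without overlap with GW3965, and no collagen was with troglitazone, against 12.0% and 14.0% of all genes. Col8a2 read 45.8, 41.0 and 36.8 CPM and 40.6, 45.1 and 32.7 CPM, above all IMQ_Veh libraries, at 0.87 ± 0.27 (SE, edgeR adjusted p = 0.0707) and 0.81 ± 0.27 (SE, adjusted p = 0.0773). Col4a3 was at 0.96 ± 0.32 (SE, edgeR adjusted p = 0.0827) and 0.84 ± 0.31 (SE, adjusted p = 0.107). The Col7a1 values, at 60.8, 62.1 and 39.2 CPM and 69.5, 62.6 and 64.1 CPM, overlapped those of IMQ_Veh, with log2 fold changes of -0.27 ± 0.17 (SE, edgeR adjusted p = 0.36) and 0.00 ± 0.17 (SE, adjusted p = 0.989).

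For the fibrillar collagens the agonist libraries lay within or under the wide IMQ_Veh range. Col1a1 read 256, 502 and 359 CPM with GW3965 and 647, 536 and 343 CPM with troglitazone, at -1.45 ± 0.55 (SE, edgeR adjusted p = 0.124) and -0.998 ± 0.54 (SE, adjusted p = 0.253). Col3a1 read 456, 1008 and 847 and 1047, 885 and 484 CPM, at -1.42 ± 0.58 (SE, edgeR adjusted p = 0.148) and -1.36 ± 0.58 (SE, adjusted p = 0.151). Neither gene passed, the groups overlapped, and IMQ_Veh replicate 3 stood above every agonist library for both. All 11 fibrillar collagens were negative with GW3965 and 9 of 11 with troglitazone; without IMQ_Veh replicate 3 the class medians were -0.11 and 0.45, so the size of the class median, and with troglitazone its sign, rests on that library. Col1a2, Col5a1, Col2a1, Col6a1, Col4a1, Col4a2 and Col18a1 passed with neither agonist. Their log2 fold changes with GW3965 were -0.81, -0.84, -1.19, -0.02, -0.38, -0.29 and -0.48. With troglitazone they were -0.51, -0.37, -0.51, 0.28, -0.01, 0.15 and -0.28.

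Leaving out IMQ_Veh replicate 3 raised the count of higher collagens to 9 with GW3965 and 14 with troglitazone, with 0 lower in either. Over all genes that fit called 12.3% higher and 8.49% lower with GW3965, and 14.3% and 11.2% with troglitazone. That library was highest of its group for 37 of the 42 collagens, so higher agonist values without it follow from its choice for most of them. Without IMQ_Veh replicate 2 instead, 0 collagens were higher and 3 lower with GW3965. With troglitazone, 2 were higher and 1 lower in that fit. The 9 were Col17a1, Col4a5, Col4a6, Col6a1, Col8a1, Col8a2, Col10a1, Col11a1 and Col22a1. The 14 held these and Col4a2, Col4a4, Col6a2, Col6a3 and Col16a1. Col10a1 was the largest of them, at 1.64 ± 0.25 (SE, edgeR adjusted p = 0.00152) and 1.78 ± 0.25 (SE, adjusted p = 0.00114), against 0.45 ± 0.50 (SE, edgeR adjusted p = 0.609) and 0.59 ± 0.50 (SE, adjusted p = 0.461) with all libraries. Its CPM were 12.8, 18.5 and 15.8 and 17.6, 14.7 and 19.4, above IMQ_Veh replicates 1 and 2 and below replicate 3. In the same libraries the summed CPM of chondrocyte markers were 631 to 896 with GW3965 and 602 to 821 with troglitazone. In IMQ_Veh replicates 1 to 3 they were 212, 298 and 632. With all libraries in the fit, 1 and 0 of 11 markers were called higher. Marker calls were not counted in the fit without IMQ_Veh replicate 3, and the part of these markers in the values was not tested.

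**Figure D5:**
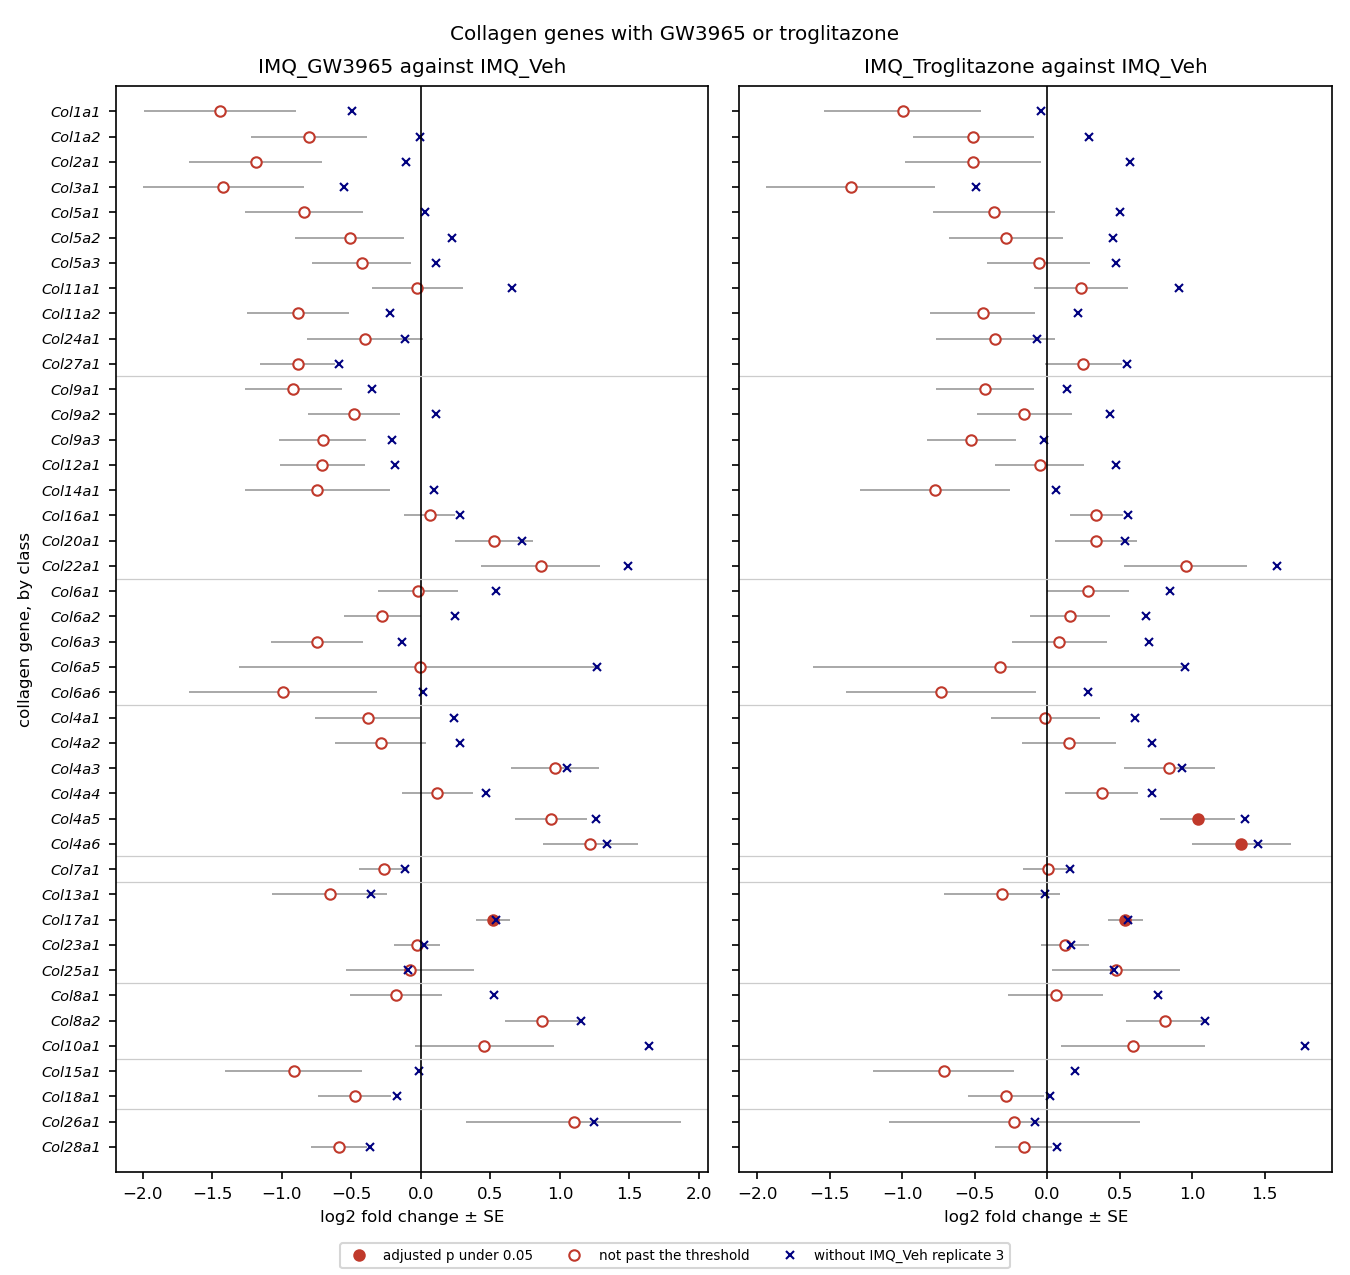
Log2 fold change of each collagen with GW3965 (left) or troglitazone (right) against IMQ_Veh, with SE bars; filled circles are past the threshold and crosses are the fit without IMQ_Veh replicate 3. The filled circles are Col17a1 on the left and Col4a5, Col4a6 and Col17a1 on the right. Nearly all crosses lie to the right of their circles, and those of Col17a1 and Col25a1 moved least.

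Among the other genes of collagen biology, few passed with an agonist. Pcolce2 was higher at 1.05 ± 0.23 (adjusted p = 0.0268) with GW3965 and 0.88 ± 0.23 (adjusted p = 0.0402) with troglitazone, the only one of 12 processing genes called, and Prelp, at 1.20 ± 0.29 (adjusted p = 0.0333) and 1.56 ± 0.29 (adjusted p = 0.0127), the only one of 16 fibril organisers. Of 15 breakdown genes, 2 were higher and 2 lower with GW3965, and 3 higher and 1 lower with troglitazone. The inhibitor Timp4, which fat and muscle express, was at 2.52 ± 0.44 (adjusted p = 0.0137) and 2.24 ± 0.44 (adjusted p = 0.014), Timp3 at 1.29 ± 0.32 (adjusted p = 0.0371) and 1.12 ± 0.32 (adjusted p = 0.0483), and Timp1 at -1.66 ± 0.41 (adjusted p = 0.0373) and -1.69 ± 0.41 (adjusted p = 0.0304). Summed CPM of the muscle markers were 7305 to 10503 with GW3965 (4 of 12 called higher) and 5331 to 8226 with troglitazone (0 called), against 1697 to 6544 in IMQ_Veh. Those of 11 adipocyte markers were 840.5 to 1172 (0 called) and 735 to 1114 (1 called higher) against 300.5 to 792. The part of these lists in the Timp4 values and in the collagen values with an agonist was not tested. The stromelysin Mmp3 was lower with GW3965 at -1.28 ± 0.33 (adjusted p = 0.0419), and Timp2 higher with troglitazone at 0.75 ± 0.21 (adjusted p = 0.0442). Of 19 basement membrane partners, 0 were called with GW3965. With troglitazone 2 were higher, the laminin chains Lamc3 at 1.34 ± 0.27 (adjusted p = 0.0151) and Lama2 at 1.25 ± 0.26 (adjusted p = 0.0163). None of the 20 modification genes and 8 receptors passed with either agonist by edgeR; P4hb was at -0.28 ± 0.11 (adjusted p = 0.142) with GW3965 and -0.26 ± 0.11 (adjusted p = 0.158) with troglitazone, and the integrin chain Itgb1 at 0.05 ± 0.14 (adjusted p = 0.851) and 0.05 ± 0.14 (adjusted p = 0.854).

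The agonist groups were last set against each other, at doses that differ, to see where their collagens differ. No collagen passed in IMQ_GW3965 against IMQ_Troglitazone by edgeR, where 1.08% of all genes were called higher and 0.782% lower. There were 2 collagens with an unadjusted p under 0.05, and DESeq2 called 1, Col27a1. The median log2 fold change was -0.26, with 36 of 42 negative, and 12 collagens were lower without overlap and 0 higher, against 11.2% and 14.1% of all genes. Col27a1 read 43.9, 29.7 and 29.1 CPM with GW3965 and 74.8, 78.5 and 73.0 CPM with troglitazone. All GW3965 values were lower, and the log2 difference was -1.14 ± 0.27 (SE, edgeR adjusted p = 0.0566). Col6a3, the long chain of collagen VI, read 169, 223 and 166 CPM and 347, 390.1 and 258 CPM, also without overlap, at -0.83 ± 0.33 (SE, adjusted p = 0.237). For Col17a1, Col4a5 and Col4a6 the differences were -0.02 ± 0.12 (SE, edgeR adjusted p = 0.969), -0.10 ± 0.25 (SE, adjusted p = 0.89) and -0.12 ± 0.32 (SE, edgeR adjusted p = 0.9), and their libraries overlapped. No list of collagen biology had a member past the threshold between the agonists.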

How the data were processed

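Ear skin mRNA was isolated with mirVana and DNase treatment and made into TruSeq stranded libraries, per the labels' protocols. Reads passed FastQC, Trim Galore, STAR 2.7.3a and RSEM 1.3.3 on GRCm38, per the submitters' processing notes. Its annotation release and strand setting were not given in the sources used here. Deposited tables hold RSEM expected counts and TPM per gene, made by the authors for each library. Symbols and positions came from GENCODE M21, which matched 52135 of 55416 identifiers.

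After rounding of the expected counts, edgeR 4.0.16 (R 4.3.3) fitted all 12 libraries together with TMM scaling, filterByExpr and its quasi-likelihood test, Benjamini-Hochberg adjusted over the 17130 genes that passed, with a threshold of 0.05. All 42 collagens passed that filter. CPM use TMM library sizes; TPM served only for levels within a library, since at the median gene the TPM of IMQ_Veh against UTX_Veh differ from CPM by -0.54 (log2). Replicate numbers were not used as a block. Depth was 18242074 to 25641602 expected counts. Alternatives used DESeq2 1.42.0, limma-voom 3.58.1, other scalings and filters, the lane field of the deposited names, 2-group fits and left-out libraries. The main edgeR fit was run on simulated counts for each comparison, and the alternatives were not.

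By rule, values by library were given for 12 set collagens (those of collagens I, III, VII, X, XVII and XVIII, Col2a1, Col5a1, Col6a1, Col4a1 and Col4a2) and for up to 6 called members with the largest change in each direction; of each list, up to 4 called members with the smallest adjusted p, or the 2 with the highest TPM, were named. In the comparisons with an agonist, Col1a2, Col5a1, Col2a1, Col6a1, Col4a1, Col4a2 and Col18a1 were left without values by library in the text. Col8a1, Col27a1 and Col6a3 were given by library after their values were seen. Lists cover procollagen modification, processing and crosslinking, fibril organisers, degradation, receptors and basement membrane partners. A result of the basement membrane list is not reported here. Members and lists were chosen with earlier results of these data known.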

Additional observations from a re-analysis of the deposited data

How the results depend on the processing

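In IMQ_Veh against UTX_Veh, 1 collagen was higher and 20 were lower under every scaling and with DESeq2. Leaving out 1 library at a time gave 1 to 3 higher, with 3 without IMQ_Veh replicate 2. It gave 19 to 30 lower, with 30 without IMQ_Veh replicate 3. Leaving out IMQ_Veh replicate 3 and IMQ_GW3965 replicate 3 together gave 0 higher and 31 lower. With GW3965 against IMQ_Veh, the higher count of 1 became 4 with DESeq2, 3 with limma-voom, 4 with no filter, 0 in a fit of the 2 groups, 0 with the lane field and 9 without both libraries, and 0 to 9 over single left-out libraries. The lower count of 0 became 2 with DESeq2 and 1 with no filter, and 0 to 3 over left-out libraries, with 3 without IMQ_Veh replicate 2. With troglitazone, the higher count of 3 became 0 in a fit of the 2 groups, 1 with the lane field and 14 without both libraries, and 0 to 14 over left-out libraries, with 0 to 1 lower. Between the agonists, DESeq2 and the fit with no filter each called 1 lower. The 2-group fits have fewer samples; otherwise the cause was not tested.

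Same-numbered libraries had correlations of deviations from -0.22 to 0.31 over the 4 comparisons, and in none were all 3 above 0.1, so the numbers were not taken to pair the libraries. With the replicate block the collagens called were 1 higher and 21 lower in IMQ_Veh, 2 higher and 0 lower with GW3965, 3 higher and 0 lower with troglitazone and 0 between the agonists. The all-gene count between the agonists went from 319 to 131 under the block. In IMQ_Veh against UTX_Veh the correlations were 0.066, 0.225 and 0.312 and each library correlated best with its own number, a hint from the data and not from the design. Under the block, Col4a2 was -0.001 in IMQ_Veh, Col6a1 0.061 with GW3965, and Col4a1 0.111 and Col7a1 -0.005 with troglitazone.

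Of 880 log2 values of named collagens under alternatives, 775 kept direction and call, 25 lost and 23 gained a call, and 57 changed sign. A changed sign was counted as such whether or not the value passed. Col4a2 passed in IMQ_Veh without both libraries (edgeR adjusted p = 0.0432). Col6a1 passed with GW3965 without both libraries (edgeR adjusted p = 0.037) and without IMQ_Veh replicate 3 alone (edgeR adjusted p = 0.018). In IMQ_Veh against UTX_Veh, Col4a2 was -0.065 with upper-quartile scaling, -0.091 with limma-voom, -0.167 with the lane field and -0.554 without both libraries, where Col4a1 was -0.129. Over left-out libraries Col4a1 ran from -0.091 to 0.843, Col4a2 from -0.516 to 0.319, Col1a1 from -0.966 to 0.373 and Col5a1 from -0.948 to 0.238. With GW3965, Col6a1 was 0.115 with limma-voom, 0.138 with the lane field and 0.536 without both libraries, where Col5a1 was 0.084, Col4a1 0.336, Col4a2 0.392 and Col7a1 0.073. Their left-out ranges were -0.259 to 0.542 for Col6a1, -1.206 to 0.028 for Col5a1, -0.747 to 0.234 for Col4a1 and -0.598 to 0.284 for Col4a2. With troglitazone, Col4a1 was 0.208 with limma-voom, 0.015 with no filter, 0.343 with the lane field and 0.621 without both libraries, where Col1a2 was 0.302, Col5a1 0.515, Col18a1 0.031 and Col2a1 0.585. Left-out ranges there were -0.367 to 0.604 for Col4a1, -0.871 to 0.286 for Col1a2, -0.725 to 0.499 for Col5a1, -0.062 to 0.157 for Col7a1, -0.485 to 0.015 for Col18a1, -0.853 to 0.571 for Col2a1 and -0.148 to 0.723 for Col4a2. Between the agonists, Col17a1 was 0.107 without both libraries and -0.131 to 0.107 over left-out libraries, and Col3a1 ran from -0.327 to 0.205. The cause of these sign changes was not tested beyond the libraries left out. Upper-quartile scaling moved the median of all genes in IMQ_Veh against UTX_Veh from 0.0075 to -0.1139.

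With 3 libraries a group, the wide spread within IMQ_Veh limits what can be called for fibrillar collagens. Genes of few counts, such as Col26a1 and Col6a5, have the largest standard errors.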
